A study of Mus musculus with 6 samples.

Results

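Adhesion G protein-coupled receptors (adhesion GPCRs) were described in hearts of mouse embryos late in gestation (E18.5). The 10 members, Adgrg6, Adgrg1, Adgrl1, Adgrl2, Adgrl3, Adgrl4, Adgrf5, Adgra2, Adgra3 and Adgre5, were found by symbol among the 24421 genes of the deposited expression table. The set was chosen by the value of Adgrg6 in the authors' own comparison of the groups, which it passed, so its difference is given here as a description, with no test. Poly(A) RNA was sequenced in 6 libraries of C57/Bl6 embryonic heart, 3 with the genotype label wildtype and 3 with the label Gas2l3 -/-. Both groups shared strain, stage and tissue. Gas2l3 codes for a protein that links actin filaments and microtubules and acts in cell division, and the series title ties its deletion to cytokinesis defects of cardiomyocytes. The labels number the samples but do not say that each came from a separate embryo, nor which part of Gas2l3 was deleted, so p-values measure only the spread between these samples. Expression is in FPKM (fragments per kilobase of transcript, scaled for sequencing depth), which sets genes of different length on 1 scale.

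Adhesion GPCRs carry a long extracellular part that binds matrix proteins or proteins on neighbouring cells, joined to a membrane-spanning receptor. Many are cut during synthesis inside a conserved GAIN domain, and a short peptide exposed at that cut, the tethered agonist, can switch the receptor on. Adgrg6 (also called Gpr126) is known for raising cyclic AMP in Schwann cells, where it is needed for myelination, and mice that lack it have heart defects before birth.

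Recovered reads came to between 3414257 and 7732674 per library. Gas2l3 itself was listed at 10.3, 4.12 and 2.48 FPKM in the wildtype-labelled libraries, replicates 1 to 3, against 4.03, 2.99 and 3.06 FPKM in the others. The groups overlapped, with a log2 fold change of -0.47 (SE 0.44), so the level of the targeted gene does not separate the libraries by label. They no longer overlapped, being lower in the knockout-labelled libraries, once each library's trends on GC content and gene length were removed. Directions below are therefore between labels. Wildtype replicate 3 stood apart: the deviation of a gene from its mean correlated with GC content at 0.702 there and at between -0.481 and -0.0709 in the other 5 libraries. Cardiomyocyte markers summed to between 30573 and 51900 FPKM, so genes of heart muscle were abundant in every library. Of the 12121 tested genes, 0% passed an adjusted p of 0.05 in limma (0 genes, and 394 at an unadjusted p under 0.05).

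All 10 members were detected in every library, and 9 reached the minimum of 1 FPKM in at least 3 libraries that the test required. Adgrl3 did not. In the wildtype-labelled libraries the mean levels ran in the order Adgre5, Adgra3, Adgrf5, Adgrl2, Adgra2, Adgrl1, Adgrl4, Adgrg1, Adgrg6 and Adgrl3. Every pair of neighbours in that order overlapped between libraries except Adgrg6 and Adgrl3. In the knockout-labelled libraries Adgra3 stood first and Adgre5 next, without overlap with its neighbours on either side. Adgrl2, Adgrf5, Adgra2, Adgrl1, Adgrg6 and Adgrl4 followed with overlap between neighbours, and Adgrg1 and then Adgrl3 lay below them without overlap.

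**Figure D1:**
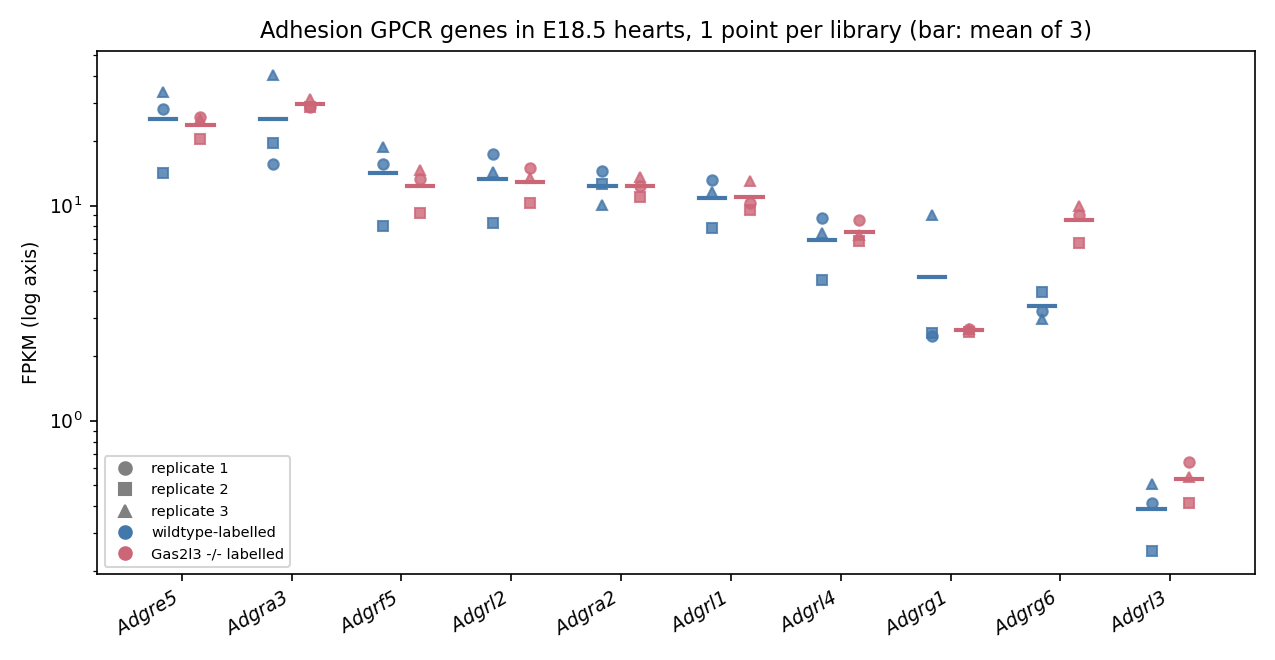
FPKM (log axis) of the 10 adhesion GPCR genes, with 1 point per library, marker shape giving the replicate number, colour the label and the bar the mean of 3. The groups of Adgrg6 are apart, at 2.98 to 3.98 against 6.74 to 9.97 FPKM, whereas those of the other 9 genes overlap.

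Adgrg6 was listed at 3.24, 3.98 and 2.98 FPKM in the wildtype-labelled libraries, against 9.06, 6.74 and 9.97 FPKM in the knockout-labelled libraries. Every knockout-labelled library lay above every wildtype-labelled one. The means were 3.40 ± 0.522 and 8.59 ± 1.67 FPKM (SD, n = 3 each), a ratio of 2.53. On the log2(FPKM + 0.5) scale the fold change was 1.21 (SE 0.25). These levels rested on 79, 197 and 118 reads against 381, 236 and 448 reads, so counting error was small beside the difference. In the authors' deposited table the log2 fold change of Adgrg6 is 1.05 with a standard error of 0.254 and an adjusted p of 0.0449. That table calls 0.0735% of its genes under 0.05 in either direction (0.0572% higher). Adgrg6 was the reason for the choice of these genes, and nothing further is read from that call.

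Within replicate numbers, Adgrg6 was higher in the knockout-labelled library by 1.35, 0.69 and 1.59 on the log2 scale for replicates 1, 2 and 3. Removing trends on GC content and gene length from each library left the groups apart, with a log2 fold change of 1.06. Across all 16 alternative settings that gave a value, the log2 fold change of Adgrg6 ranged from 1.06 to 1.37. Among all tested genes, 69 (0.569%) had a log2 fold change at or above that of Adgrg6. A place near the top follows from its choice by the difference in these same libraries, so it is only a description. The gene lies on chromosome 10 from 14402583 to 14545659 on the minus strand (mm10, GENCODE M21, identifier ENSMUSG00000039116.6), and its longest transcript has 25 exons. Gas2l3 is on the same chromosome, 74.9 Mb away.

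Set against its family, Adgrg6 moved from well below the other members to nearer their level. Its log2(FPKM + 0.5) minus the mean of the other 8 tested members was -1.79, -0.98 and -2.18 in the wildtype-labelled libraries. In the knockout-labelled libraries the same quantity was -0.40, -0.56 and -0.31. The group means were -1.65 ± 0.61 and -0.43 ± 0.12 (SD, n = 3 each), a difference of 1.22. The mean of the other 8 was 3.60 ± 0.43 in the wildtype-labelled and 3.59 ± 0.15 in the knockout-labelled libraries, so the difference came from Adgrg6. As a share of the summed FPKM of all 10 members, Adgrg6 made up 2.71%, 4.87% and 2.0% against 7.17%, 6.37% and 7.56%. The family sum itself was 117 ± 33.6 and 121 ± 13.8 FPKM and overlapped between groups. Ranked by level among the members of a library, Adgrg6 stood 8, 8 and 9 against 7, 8 and 7, so its place among them moved little.

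**Figure D2:**
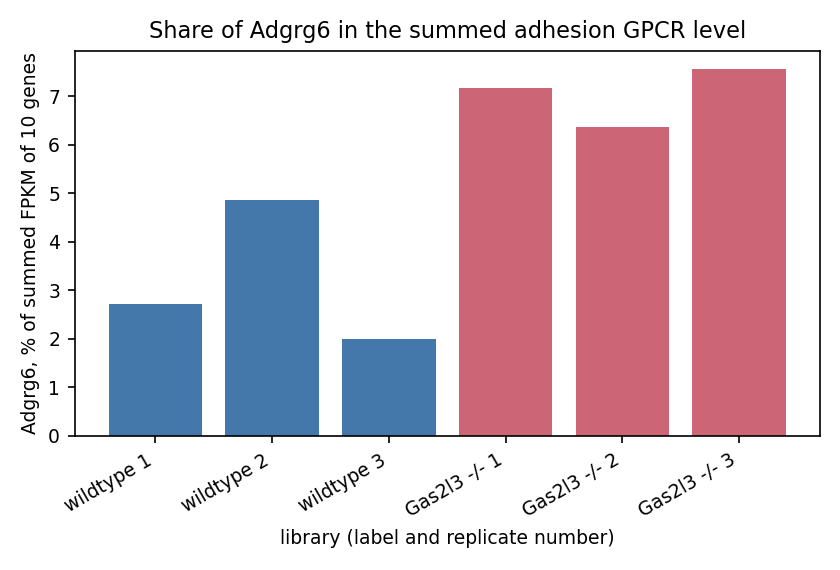
Share of Adgrg6 in the summed FPKM of the 10 adhesion GPCR genes (percent, axis from 0), with 1 bar per library. The wildtype-labelled libraries lie between 2.0% and 4.87%, below the knockout-labelled ones at 6.37% to 7.56%.

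Apart from Adgrg6, no member had groups that did not overlap. Of the other 8 tested members, 0 were higher and 0 lower without overlap, beside 5.02% of all tested genes higher and 4.74% lower. Adgrg6 is left out of that count, as the set was chosen by its difference. No member was called by limma, as was no other gene. A higher mean in the knockout-labelled libraries was found for 6 of the 9, Adgrg6 included, beside 49.0% of all tested genes. The median log2 fold change was 0.0016 over the other 8 members and -0.0089 over all tested genes. Without wildtype replicate 2, and likewise without knockout replicate 3, 3 of the 9 had a higher mean.

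**Figure D3:**
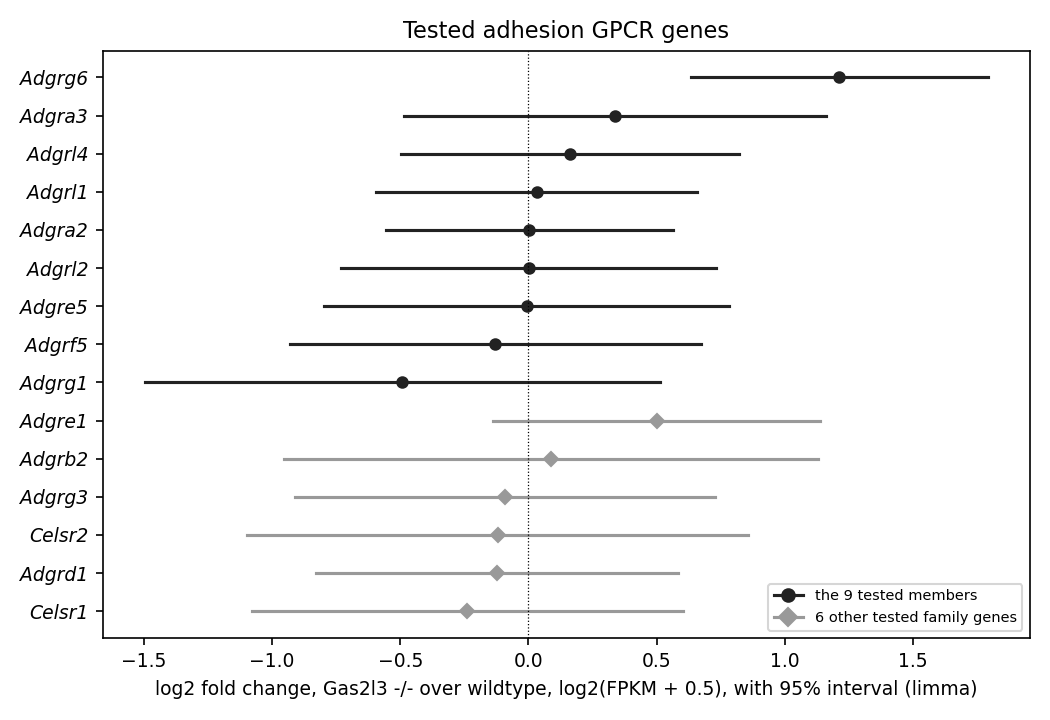
Log2 fold change on log2(FPKM + 0.5), knockout-labelled over wildtype-labelled, with limma's 95% interval, for the 9 tested members (black) and 6 other tested adhesion GPCR genes (grey). The interval of Adgrg6, from 0.63 to 1.79, is shown as a description, and the intervals of the other 14 genes include 0.

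Latrophilins, encoded by Adgrl1, Adgrl2 and Adgrl3, bind teneurins and FLRT proteins on neighbouring cells and are best known at synapses. Adgrl1 was listed at 13.2, 7.83 and 11.6 FPKM in the wildtype-labelled libraries, against 10.3, 9.56 and 13.0 FPKM in the knockout-labelled ones. The log2 fold change of 0.03 (SE 0.28) had an adjusted p of 0.991 in limma, with a 95% interval from -0.60 to 0.66. Adgrl2 was listed at 17.5, 8.26 and 14.3 FPKM and at 15.0, 10.3 and 13.4 FPKM, and its interval ran from -0.73 to 0.73. For both genes wildtype replicate 2 was the lowest of the 6 libraries and the knockout-labelled values lay inside the wildtype-labelled range. Adgrl3 was listed at 0.413, 0.249 and 0.509 FPKM and at 0.640, 0.416 and 0.549 FPKM, from 9 to 24 reads a library. Leaving out wildtype replicate 2 turned the log2 fold changes of Adgrl1 and Adgrl2 to -0.18 and -0.30.

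Vessel-wall receptors form the next group. Adgrl4 (also called Eltd1) marks endothelial cells and acts in vessel sprouting, Adgrf5 (Gpr116) is found in endothelium and controls surfactant in the lung, and Adgra2 (Gpr124) works with Reck to pass Wnt7 signals to endothelial cells of the brain. Adgrl4 was listed at 8.77, 4.52 and 7.48 FPKM in the wildtype-labelled libraries, against 8.59, 6.83 and 7.30 FPKM in the knockout-labelled libraries. The log2 fold change of 0.16 (SE 0.29) had an adjusted p of 0.966 in limma. Adgrf5 was listed at 15.7, 8.05 and 18.7 FPKM and at 13.3, 9.24 and 14.6 FPKM. Its log2 fold change was -0.13 (SE 0.35), and the sign turned when all libraries were scaled to a common FPKM total (0.045), a scaling that moved the median of all tested genes to 0.15. Adgra2 was listed at 14.6, 12.6 and 10.1 FPKM and at 12.4, 11.0 and 13.6 FPKM, with an interval from -0.56 to 0.56. In all 3 genes the groups overlapped and the knockout-labelled range lay inside the wildtype-labelled one.

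Promoter windows of Adgrl4 and Adgrf5 are shown because these genes followed each other most closely of all member pairs once GC and length trends were removed. That of Adgrl1 is shown for contrast, as its profile then lay at a distance of 0.714 from Adgrf5. It was not the farthest: Adgrg6 then lay at 0.727 from Adgrf5, and Adgra2, which has no window, at 0.827. As deposited the distance of Adgrl1 from Adgrf5 was 0.231, so their separation arose with the trend removal. Each window holds the 250 bases before a RefSeq start site (GRCm38.p6) on the gene's strand, and 8 of the 10 members have a window in the RefSeq table used. Capitals mark matches on either strand to the GC box GGGCGG, which reads CCGCCC on the opposite strand, or to the CCAAT box. A search for the TATA box, spelled TATAAA, was made too. The windows are chr3:151437632-151437881 (plus strand) for Adgrl4, chr17:43360181-43360430 (plus strand) for Adgrf5 and chr8:83899848-83900097 (plus strand) for Adgrl1.
Adgrl4: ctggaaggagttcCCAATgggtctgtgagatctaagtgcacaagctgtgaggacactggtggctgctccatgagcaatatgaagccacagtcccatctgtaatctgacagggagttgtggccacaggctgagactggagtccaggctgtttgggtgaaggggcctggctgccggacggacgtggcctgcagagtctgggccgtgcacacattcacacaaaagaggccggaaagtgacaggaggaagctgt
Adgrf5: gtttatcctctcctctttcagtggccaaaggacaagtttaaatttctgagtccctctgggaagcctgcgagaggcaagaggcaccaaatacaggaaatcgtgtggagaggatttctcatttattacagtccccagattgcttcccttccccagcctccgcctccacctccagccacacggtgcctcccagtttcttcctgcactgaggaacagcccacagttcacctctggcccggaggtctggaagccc
Adgrl1: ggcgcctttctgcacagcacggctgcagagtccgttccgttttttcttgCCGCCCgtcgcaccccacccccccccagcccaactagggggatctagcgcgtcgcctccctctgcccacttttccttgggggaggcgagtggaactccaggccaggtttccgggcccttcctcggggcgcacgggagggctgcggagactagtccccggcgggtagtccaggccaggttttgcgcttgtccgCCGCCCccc
Adgrl4 has a CCAAT box in its window, which 33.8% of 32851 RefSeq windows of this length also have. Adgrf5 has none of the 3 motifs in the window shown, though another window of the gene holds a CCAAT box. Adgrl1 has GC boxes, a motif in 32.7% of all windows, and 21 CG dinucleotides, against 5 each for Adgrl4 and Adgrf5 and a median of 6 over all windows. The window of Adgrg6 is also rich in these, with 32 CG dinucleotides, more than in 95.4% of all windows, and a GC box. A GC box was found for 4 of the 8 members with a window: Adgrg6, Adgra3, Adgrl1 and Adgrl3. TATAAA, in 12.4% of all windows, was found for Adgrl2 and Adgrl3.

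Adgrg1 (Gpr56), a member of the same subfamily as Adgrg6, is a receptor for collagen type III that signals through Gna12 and Gna13. It was listed at 2.49, 2.55 and 9.01 FPKM in the wildtype-labelled libraries, against 2.68, 2.60 and 2.66 FPKM in the knockout-labelled libraries. Wildtype replicate 3 alone lay far above the other 5 libraries, with 212 reads against 36 to 75. Over all 6 libraries its log2 fold change came to -0.49 (SE 0.44), with an adjusted p of 0.966 in limma, and without wildtype replicate 3 to 0.060. The authors' deposited table gives a log2 fold change of -0.49 for Adgrg1 and no p-value.

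Adgra3 (Gpr125), an orphan receptor, was listed at 15.6, 19.6 and 40.7 FPKM in the wildtype-labelled libraries, against 28.6, 28.7 and 31.3 FPKM in the knockout-labelled ones. The wildtype-labelled values surrounded the knockout-labelled ones, with wildtype replicate 3 highest, as in Adgrg1. Its log2 fold change of 0.34 (SE 0.36) had the highest value after Adgrg6, with a 95% interval from -0.48 to 1.16. It was 0.060 without wildtype replicate 1 and 0.74 without wildtype replicate 3, and limma called it in neither. Adgre5 (Cd97) is a receptor of leukocytes and other cells that binds Cd55 and Thy1. It was listed at 28.1, 14.2 and 33.7 FPKM and at 25.8, 20.4 and 25.4 FPKM, and its log2 fold change was -0.0074 (SE 0.35). That sign turned under a common FPKM total (0.17), quantile normalization (0.072) and removal of GC and length trends (0.10). Lymphocyte markers summed to 0.377 to 0.814 FPKM in the wildtype-labelled and 0.719 to 1.05 FPKM in the knockout-labelled libraries, with Cd3e and Cd3g at 0, and their part in the level of Adgre5 was not tested.

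The members, like most genes, spread more widely among the wildtype-labelled libraries. The knockout-labelled range lay within the wildtype-labelled range for 8 of the 9 tested members (88.9%), all but Adgrg6, and for 42.8% of all tested genes. The SD of log2(FPKM + 0.5) was larger in the wildtype-labelled group for 8 of the 9, beside 83.8% of all tested genes. Its median over members was 0.54 in the wildtype-labelled and 0.19 in the knockout-labelled group, beside 0.49 and 0.22 over all tested genes. Within the wildtype-labelled libraries, replicate 2 was the lowest for 6 of the 10 members and replicate 3 the highest for 5.

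Likeness of profiles was measured as the root-mean-square distance between log2(FPKM + 0.5) values, each gene centred on its mean over the 6 libraries. As deposited, the closest pair was Adgrf5 and Adgre5 at 0.113, followed by Adgrl2 and Adgrl4 at 0.125. With GC and length trends removed, the closest pairs were Adgrl4 and Adgrf5 at 0.130 and Adgrg1 and Adgrf5 at 0.135. Adgrl1 and Adgra2, the members with the most GC-rich transcripts at 59.1% and 59.6%, then lay at 0.179 from each other, against 0.251 as deposited. Both were then lowest in wildtype replicate 3, the library with the strongest GC trend. There the removal took Adgrl1 from 3.60 to 2.63 and Adgra2 from 3.40 to 2.57 on the log2 scale. Their likeness after removal was therefore shaped by the correction itself. The points share libraries, depth and base composition, so these distances are descriptions.

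**Figure D4:**
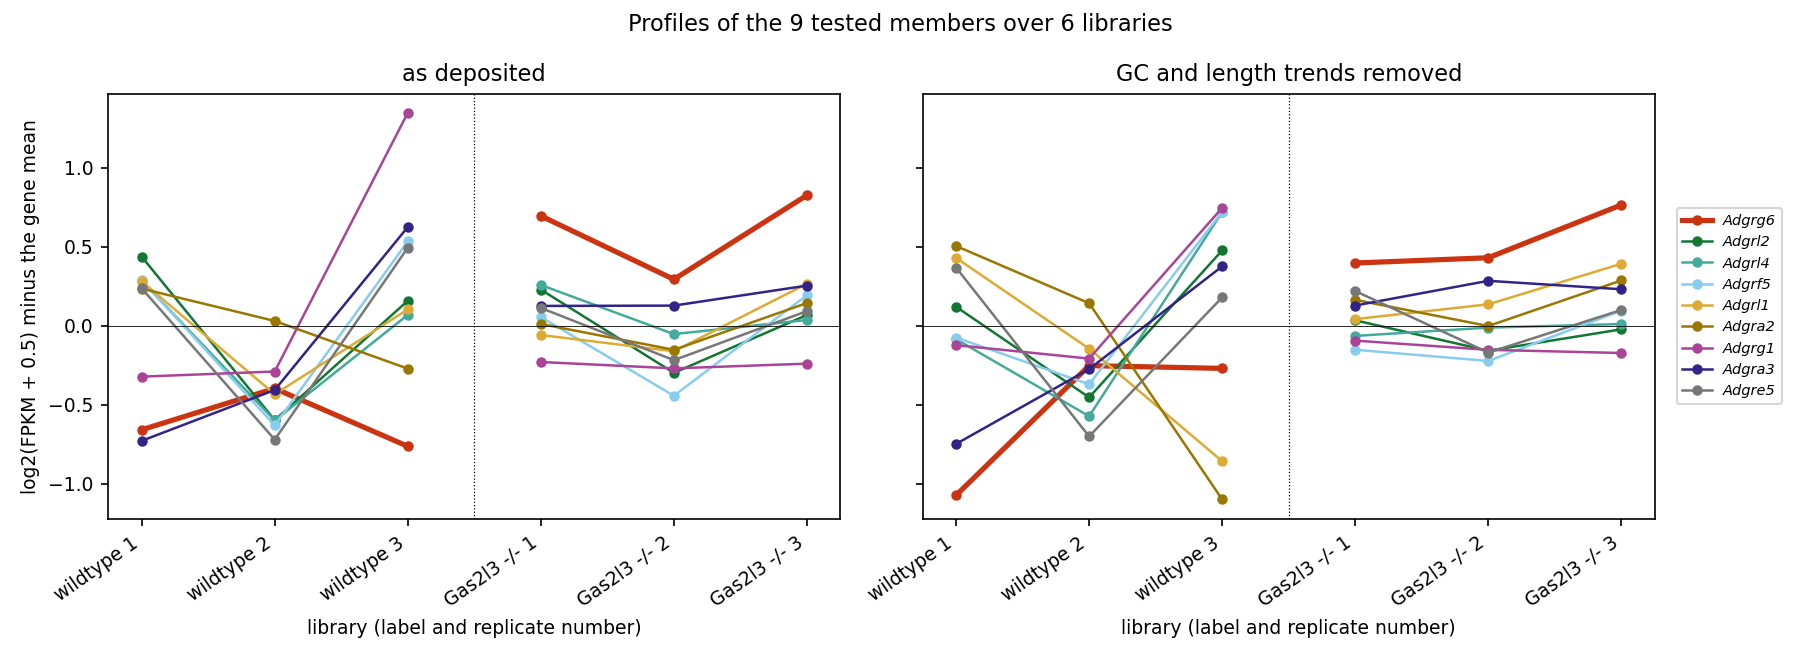
Log2(FPKM + 0.5) of the 9 tested members minus the gene mean, by library, as deposited (left) and with GC and length trends removed (right); lines only join the points of a gene within a label. Adgrg6 is above its mean in all 3 knockout-labelled libraries in both panels, and Adgrl1 and Adgra2 fall lowest in wildtype replicate 3 on the right.

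Other genes of the family gave no calls in limma. Of 19 further adhesion GPCR genes in the table, 6 were tested: Celsr1, Celsr2, Adgrb2, Adgrd1, Adgre1 and Adgrg3. The log2 fold changes of Celsr1, Celsr2, Adgrd1 and Adgrg3 were -0.24, -0.12, -0.12 and -0.09, with SEs of 0.31 to 0.43, and that of Adgrb2 was 0.09 (SE 0.46). Their groups overlapped. Adgre1, the macrophage surface protein known as F4/80, was listed at 1.57, 1.42 and 1.07 FPKM in the wildtype-labelled libraries, against 1.87, 1.84 and 2.69 FPKM in the knockout-labelled libraries, without overlap. The log2 fold change of 0.50 (SE 0.28) had an adjusted p of 0.966 in limma, from 19 to 60 reads a library. Adgrg7 and Adgra1 were listed at 0 in every library. Adgrg1 and Adgrg3 are neighbours on chromosome 8, with 3474 bases between them, and both were highest in wildtype replicate 3 (9.01 and 3.44 FPKM). Celsr1, Celsr2, Adgrb2 and Adgrd1, on other chromosomes, were highest in that library too.

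Of the ligands and binding partners, 16 of 24 listed genes were tested, 7 with a higher and 9 with a lower mean, and limma called none. Their median log2 fold change was -0.08, beside -0.0089 for all tested genes. It ranged from -0.20 without wildtype replicate 2 to 0.19 without wildtype replicate 3. Cd55, the ligand of Adgre5 that shields cells from complement, was listed at 3.17, 4.84 and 3.51 FPKM against 5.39, 7.50 and 6.76 FPKM. Those groups did not overlap as deposited, but they did once GC and length trends were removed. The log2 fold change as deposited was 0.71 (SE 0.26). Cd55 was the 1 gene of this list with an unadjusted limma p under 0.05, which 3.25% of all tested genes had. Reck, the partner of Adgra2, was at 0.56 (SE 0.28), Thy1 at -0.55 (SE 0.41) and Lama2, a laminin chain that binds Adgrg6, at -0.50 (SE 0.46).

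Signalling genes downstream of the receptors also gave no calls. All 27 genes of the signalling list, among them those for G protein alpha subunits, adenylyl cyclases, protein kinase A and arrestins, were tested, 13 with a higher and 14 with a lower mean and a median log2 fold change of -0.06, which lay between -0.12 and 0.060 when each library was left out. Prkaca, the catalytic subunit of protein kinase A, was at -0.48 (SE 0.37). Adcy5, a main adenylyl cyclase of heart muscle, was at -0.38 (SE 0.34). Gnai3, an inhibitory G protein subunit, was at 0.38 (SE 0.33). Of 6 genes for the Wnt route that Adgra2 serves, 4 were tested and all had a higher mean, beside 49.0% of all tested genes. They ranged from 0.10 for Lrp5 to 0.43 for the receptor Fzd4, with a median of 0.21. That median was 0.094 without wildtype replicate 2 and 0.40 without wildtype replicate 1. Axin2 and Lef1 were too low to test, and their groups overlapped. Axin2 was listed at 0.751, 0.895 and 1.12 against 0.944, 0.697 and 0.917 FPKM. Lef1 was listed at 0.145, 0.392 and 1.07 against 0.252, 0.252 and 0.550 FPKM.

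**Figure D5:**
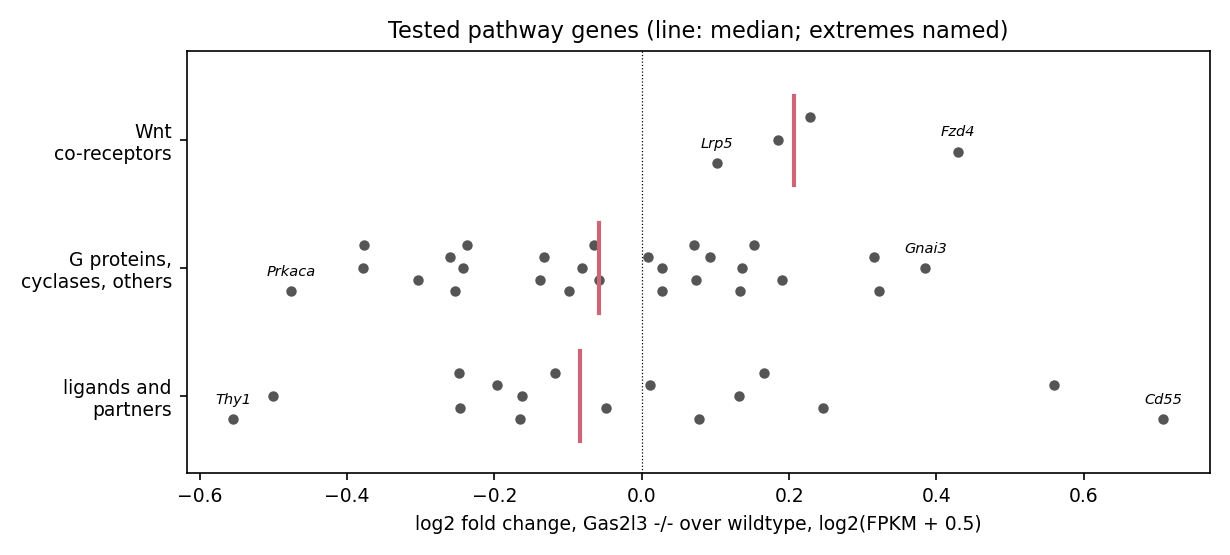
Log2 fold change on log2(FPKM + 0.5), knockout-labelled over wildtype-labelled, of the tested genes of 3 pathway lists, with 1 point per gene, a line at the median and the lowest and highest genes named. The medians are 0.21, -0.06 and -0.08, and Cd55 at 0.71 is the highest point.

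In bulk tissue, fewer cells of a type and less RNA per cell cannot be told apart, so markers of the cell types that could carry Adgrg6 are given beside it. Of 6 endocardial markers, 4 had a higher mean, and their summed level was 58.9 to 173 FPKM in the wildtype-labelled and 112 to 135 FPKM in the knockout-labelled libraries. As deposited, Npr3 alone of these did not overlap, at 10.5, 16.4 and 7.86 against 25.2, 21.5 and 23.1 FPKM. With GC and length trends removed, Plvap was higher without overlap as well. Single markers without overlap, here and below, stand beside 5.02% of all tested genes higher and 4.74% lower without overlap. Of 12 endothelial markers, 6 had a higher mean, with sums of 473 to 1174 and 613 to 732 FPKM, and Emcn, a sialomucin of venous and capillary endothelium, did not overlap (log2 fold change 1.08, SE 0.30). Of 6 coronary capillary markers, 2 had a higher mean; the median log2 fold change was -0.18 and the sums were 750 to 1290 and 825 to 1905 FPKM. Car4, a carbonic anhydrase of capillary endothelium, was lower without overlap, at 2.06, 2.64 and 5.57 against 0.358, 0.573 and 1.0 FPKM (log2 fold change -1.71). Those values rest on few reads, 10, 26 and 44 against 3, 4 and 9. Of 4 lymphatic markers, 0 had a higher mean, with sums of 35.1 to 43.4 and 31.9 to 37.4 FPKM. No marker of these 4 lists was at 0.

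Schwann cell and neural crest markers summed to 5.95 to 9.13 FPKM against 8.42 to 8.96 FPKM, and 2 of 8 were tested. Atrial markers summed to 2029 to 5224 FPKM against 6471 to 8454 FPKM without overlap. Nppa, the natriuretic peptide gene, made up most of that difference at 1031, 2273 and 2408 against 6523, 4581 and 6005 FPKM. The other 4 atrial markers overlapped, at 998 to 2947 FPKM against 1144 to 2450 FPKM, and 2 of all 5 had a higher mean. Macrophage markers, of which 6 of 8 tested had a higher mean, summed to 53.8 to 113 FPKM against 84.4 to 134 FPKM. Their log2 fold changes ran from -0.16 for C1qa to 1.43 for Lyz2, with a median of 0.13. Fibroblast markers had a higher mean in 6 of 8, with sums of 618 to 1217 and 864 to 1001 FPKM and a median log2 fold change of 0.35. Lum (0.94, SE 0.35) and Tcf21 (0.68, SE 0.38) were higher without overlap, and the other markers of that list overlapped. Cardiomyocyte markers had a higher mean in 0 of 8, with a median log2 fold change of -0.45. The part of these cell types in the level of Adgrg6, Adgre1 or Cd55 was not tested.

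Genes whose profile was nearest to that of Adgrg6 over the 6 libraries were Mgarp (distance 0.160), Spry4 (0.191), Zmat3 (0.209), Phlda1 (0.223) and Pmaip1 (0.235). Mgarp, a mitochondrial protein, was listed at 4.29, 4.41 and 3.79 FPKM against 8.98, 9.22 and 10.4 FPKM. Spry4, an inhibitor of receptor tyrosine kinase signalling, was listed at 5.73, 6.65 and 6.20 FPKM against 12.6, 11.9 and 13.1 FPKM. In both genes the knockout-labelled libraries lay closer together than in Adgrg6. Among the members, Adgra2 had the nearest profile as deposited, at a distance of 0.627. With GC and length trends removed, Adgra3 was nearest at 0.388 and Adgra2 farthest at 0.797.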

How the data were processed

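Total RNA of embryonic hearts was extracted, poly(A) RNA was selected and libraries were amplified with 13 PCR cycles, per the labels' protocols. FastQC, DESeq2 and the build mm10 are named per the submitters' processing notes. Aligner, read counter, annotation and strand setting: not given in the sources used here. Reads of overlapping genes may therefore be shared. The values in each library are FPKM of each gene as deposited by the authors, and a second deposited table gives the authors' group comparison as log2 fold changes and p-values, per the file headers. From the values, whole reads could be recovered (100% of 94235 values above 0, tolerance 0.01). Read numbers cover counting error only, as duplicates from PCR are not marked.

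Groups and replicate numbers came from the labels. Genes at 1 FPKM or more in at least 3 libraries were tested with limma 3.58.1 in R 4.3.3 (functions lmFit and eBayes, trend on) on log2(FPKM + 0.5), two-sided, with Benjamini-Hochberg adjustment over all 12121 genes and a threshold of 0.05. The pseudocount shrinks fold changes of low genes. The members, gene lists and markers were chosen with earlier results of these data known. Named genes were Gas2l3, the members, every other tested adhesion GPCR gene, the 4 genes of each list with the smallest p (given here in part) and the 5 nearest profiles. Outside it stand Adgre4, Adgra1 and the genes called with trends removed, chosen after seeing their values. Likeness between members was compared over all pairs.

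Same-numbered libraries deviated together across genes (r = 0.472, 0.443 and 0.186), least so for replicate 3. Trends on base composition were shared in part too. The correlation with GC content was -0.474 and -0.481 in the wildtype and knockout libraries of replicate 1, and 0.702 and -0.159 in those of replicate 3. These values therefore cannot show that the numbers pair the samples. The labels give numbers only, so the main fit used no pairing. GC content was read off the longest transcript in GENCODE M21 on GRCm38, the same build as mm10, for 11709 of the tested genes, and trends on GC content and length were removed by lowess (span 0.3). Alternatives were other pseudocounts, filters and scalings, the replicate block, trend removal, voom on recovered reads and leaving out each library. The scripts were tested on simulated data. Coordinates are 1-based.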

Additional observations from a re-analysis of the deposited data

How the results depend on the processing

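Adgrg6 kept its direction in every alternative run, and no alternative called a member. Adgrg6 was chosen by its difference in these libraries, and its groups did not overlap. Leaving out a library or changing the pseudocount could therefore not turn its direction, and its keeping is only a description. Removing GC and length trends called 2 genes, Ppp1r1b and Cacng6, both lower (log2 fold changes -1.76 and -1.79, limma adjusted p = 0.0445), against 0 in the fit without that removal; the cause was not tested. With the replicate number as a block and the same trends removed, 0 genes were called, so both calls were lost in that fit. The block alone also called 0 genes and left Adgrg6 minus the mean of the other members at 1.22. The number of members with a higher mean was between 3 and 8 when each library was left out, with 3 without wildtype replicate 2 or knockout replicate 3.

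Log2 fold changes near 0 turned sign in some settings. Removing GC and length trends, with or without the replicate block, gave 0.10 for Adgre5, -0.10 for Adgrl2 and -0.042 for Adgrl4. The same removal kept the sign of Adgrl1 and Adgra2 but moved them from 0.03 to 0.38 and from 0.0029 to 0.30. A common FPKM total gave 0.17 for Adgre5 and 0.045 for Adgrf5, quantile normalization gave 0.072 for Adgre5, and a pseudocount of 1 gave -0.0016 for Adgrl2. Leaving out each library gave -0.13 to 0.12 for Adgra2, -0.37 to 0.24 for Adgre5, -0.48 to 0.11 for Adgrf5, -0.78 to 0.060 for Adgrg1, 0.060 to 0.74 for Adgra3, -0.18 to 0.18 for Adgrl1, -0.30 to 0.22 for Adgrl2 and -0.10 to 0.35 for Adgrl4. Over the same settings Adgrg6 minus the others ranged from 0.96 to 1.56. Adgrl3, Adgre1, Adgre4, Adgrg3, Fcgr1 and Car4 rest on few reads, which limits their precision.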

Other observations

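Adgre4, a myeloid relative of Adgre1 that was too low to test, was listed at 0.229, 0.226 and 0.188 FPKM in the wildtype-labelled libraries, against 0.311, 0.426 and 0.374 FPKM in the knockout-labelled libraries, without overlap. These values rest on 3 to 9 reads each. Fcgr1, a macrophage marker, was listed at 0.514, 0.761 and 1.01 FPKM, against 1.79, 1.72 and 2.07 FPKM. Other markers of that list differed less or were lower. Log2 fold changes were 0.39 for Cx3cr1, 0.23 for Cd68, 0.04 for Csf1r, 0.03 for Mrc1, -0.08 for C1qb and -0.16 for C1qa, against 1.43 for Lyz2. Adgre5 and Adgrl1 lie 159 kb apart on chromosome 8, and both were lowest in wildtype replicate 2. Adgrl2 and Adgrl4 lie 2.45 Mb apart on chromosome 3, and wildtype replicate 2 was the lowest library for both as well. This was not particular to neighbours, as that library was the lowest wildtype-labelled one for 6 of the 10 members. Adgrf5 and Adgrl3, on other chromosomes, were among them.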
